A study of Mus musculus with 6 samples.

Results

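The 34 genes described here encode the enzymes that build cholesterol and fatty acids from acetyl-CoA, together with the SREBP transcription factors and the proteins that gate them. They were chosen by symbol from a fixed list, not by a threshold on their values, and all 34 are among the 23420 genes of the deposited table. In order of role they comprise 7 enzymes of the mevalonate pathway, 10 enzymes from squalene to cholesterol, 6 genes of the SREBP system and 11 genes of fatty acid synthesis. The symbol Sc4mol is the older name of Msmo1. In the study, eosinophils of wild-type mice were grown from bone marrow and exposed to IL-33, an alarmin cytokine of damaged tissue, or to phosphate-buffered saline (PBS). The IL-33 dose was 2.5 ng/mL for 3 hours, and each arm has 3 RNA-seq libraries. Cells of both arms had first been grown in FLT3 ligand and stem cell factor at 100 ng/mL each, then matured with IL-5 at 20 ng/mL, and were used on day 14 after dead cells were taken out. The labels name no mouse or culture for any library, so the p-values below cover the spread among libraries, and part or all of it may be technical.

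Cells make cholesterol by joining acetyl-CoA units into mevalonate, turning mevalonate into isoprenoid units, joining these into squalene and closing squalene into the ring of lanosterol, which is then trimmed to cholesterol. SREBP-2, the product of Srebf2, is held in the endoplasmic reticulum with its escort SCAP by the INSIG proteins while sterols are plentiful, and when sterols fall it is cut and enters the nucleus to switch on the sterol genes. SREBP-1, the product of Srebf1, acts more on fatty acid genes. Fatty acid synthesis starts from the same cytosolic acetyl-CoA, made by ATP citrate lyase, so both pathways draw on citrate exported from mitochondria.

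Promoter sequences are shown because SREBPs are known to bind the sterol regulatory element and to act together with NF-Y, which binds CCAAT. RefSeq promoter windows (GRCm38.p6, 250 bases before to 50 after a RefSeq start of the gene) were at hand for 27 of the 34 members. The 250 bases before the start are printed for 4 of them, 5′ to 3′ on the gene's strand. Among the 27 members with a window, only Hmgcs1 has a match to TCACNCCAC, and members without a window were not searched. Some windows lie inside the GENCODE gene span and not at its start, as for Acaca and Acacb. Gene starts without a window were not searched either. Mvd is the member whose call, higher with IL-33, held most often (19 of 20 alternative settings). For Nsdhl and Ebp the call, lower, held in 18 of 20. These settings refit the same libraries, and those with equal totals are no separate support for a call of lower. Capitals mark TCACNCCAC, a form of the sterol regulatory element, and CCAAT, either strand (CCAAT reads ATTGG on the other).
Hmgcs1 (chr13:119690101-119690350, plus strand): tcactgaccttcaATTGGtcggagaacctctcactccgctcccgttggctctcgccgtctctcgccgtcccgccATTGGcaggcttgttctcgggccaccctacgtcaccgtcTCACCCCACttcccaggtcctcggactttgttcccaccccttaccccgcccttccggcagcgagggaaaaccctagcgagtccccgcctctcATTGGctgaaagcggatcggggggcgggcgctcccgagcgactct
Mvd (chr8:122443423-122443672, minus strand): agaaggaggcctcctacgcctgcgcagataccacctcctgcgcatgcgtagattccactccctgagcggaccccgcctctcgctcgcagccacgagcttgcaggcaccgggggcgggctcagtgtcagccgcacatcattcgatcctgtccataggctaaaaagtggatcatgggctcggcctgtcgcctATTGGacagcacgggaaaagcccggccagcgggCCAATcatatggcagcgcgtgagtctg
Nsdhl (chrX:72918271-72918520, plus strand): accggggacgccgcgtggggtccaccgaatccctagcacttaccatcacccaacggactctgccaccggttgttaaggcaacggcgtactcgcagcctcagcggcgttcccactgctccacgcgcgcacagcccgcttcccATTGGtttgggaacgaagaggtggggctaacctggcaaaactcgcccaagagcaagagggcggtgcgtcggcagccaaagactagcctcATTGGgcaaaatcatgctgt
Ebp (chrX:8193513-8193762, minus strand): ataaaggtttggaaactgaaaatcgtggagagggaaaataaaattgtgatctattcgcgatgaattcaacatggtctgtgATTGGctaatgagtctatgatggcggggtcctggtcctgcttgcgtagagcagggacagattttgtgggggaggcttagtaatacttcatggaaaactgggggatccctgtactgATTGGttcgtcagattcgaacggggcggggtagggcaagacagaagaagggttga

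Over the whole windows, TCACNCCAC on either strand occurred in 1 of the 27 members (3.70%) and in 1.44% of the 27025 genes with a window. In Hmgcs1 it began 137 bases before the start, flanked by CCAAT boxes. A form 1 base longer, with the free base fixed as C, was in 0 of the 27 members and in 0.0999% of all genes. CCAAT occurred in 22 of the 27 members (81.5%) and in 41.1% of all genes, and on the gene's own strand alone in 12 of the 27. The Sp1 box GGGCGG occurred in 21 of the 27 members (77.8%) and in 38.2% of all genes. The E-box CACGTG occurred in 5 of the 27 members (18.5%) and in 8.09% of all genes. The members called higher and those called lower after IL-33 both include genes with CCAAT boxes, as the Mvd, Nsdhl and Ebp sequences show. The background is all genes with a window, whether or not they are expressed in these cells, and no background of expressed genes was counted. A gene counts when any of its windows matches, and some members have several windows. These matches describe letters in a window, not binding.

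The libraries held between 8218303 and 10785521 reads on genes, of which Rn45s, the ribosomal RNA precursor gene, took 13.7% to 24.8% in the PBS libraries. Its share in the 3 IL-33 libraries was 24.3%, 59.6% and 54.8%. This left 4229504 to 7129435 reads for other genes. All 10 eosinophil markers were detected, and 9 of them were called lower with IL-33, with a summed normalized count of 18843 to 31334 against 51552 to 62607 with PBS. Of 8 macrophage markers 3 were tested and 1 was called, Csf1r, higher, with a summed count of 4073 to 5045 against 1529 to 1841, while C1qa, C1qc and Ms4a7 stayed under 10 and Marco was at 0. Of 8 neutrophil markers tested 0 were higher and 2 lower, and their sum was 2342 to 3092 against 2915 to 3560. Mast cell and basophil markers summed to 71.0 to 100.0 against 97.1 to 213, with 0 of 5 tested higher, 2 lower and Mcpt4 at 0. All 5 dendritic cell markers stayed under 10. Of 4 lymphoid markers 1 was tested and 0 were called, with sums of 32.2 to 42.3 against 46.6 to 60.8 and Ncr1 at 0. Of 5 erythroid and megakaryocyte markers 2 were tested and 1, Pf4, was higher, with sums of 1972 to 2944 against 2181 to 2928 and Hba-a1 and Hbb-b1 at 0. In such bulk RNA, fewer cells of a type and less RNA per cell cannot be told apart, and the part of these marker and Rn45s differences in the results below was not tested.

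After IL-33 the synthesis genes did not move as a block. Values are normalized counts (reads divided by the authors' size factor of each library), and a gene was called when limma gave an adjusted p under 0.05 over all genes tested. Of the 34 members, 32 had a normalized count of at least 10 in at least 3 libraries and were tested. Of these, 6 were called higher with IL-33 (Pmvk, Mvd, Fdft1, Cyp51, Srebf2 and Stard4), 6 were called lower (Acat2, Nsdhl, Ebp, Dhcr7, Acly and Acaca) and 20 were not called. Acat2, Nsdhl and Dhcr7 passed the filter only through the PBS libraries, so their place in the count of lower is no support. With no filter Nsdhl and Dhcr7 were called lower and Acat2 was not called. Of the 6 called higher, all but Mvd had a log2 fold change below 0 when libraries were scaled to equal totals. The corresponding shares over all 10544 genes tested were 17.4% higher and 14.4% lower, or 31.9% in either direction, so 12 of 32 members is near the background and is no result about the set. The median log2 fold change of the 32 was -0.22, beside -0.03 over all genes tested. The groups did not overlap for 18 members, 9 higher and 9 lower with IL-33, beside 25.5% and 24.7% of all genes (50.2% in either direction). Leaving out PBS replicate 2 left 1 member called higher, Mvd, and 1 lower, Ebp (7.6% and 3.47% of all genes). Leaving out PBS replicate 3 left Mvd and Nsdhl (6.74% and 3.08%), and leaving out IL-33 replicate 2 or PBS replicate 1 left 2 higher and 4 lower (8.43% and 7.23%, and 10.8% and 5.78%). Without IL-33 replicate 3, 6 were higher and 5 lower (13.5% and 11.6%).

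**Figure D1:**
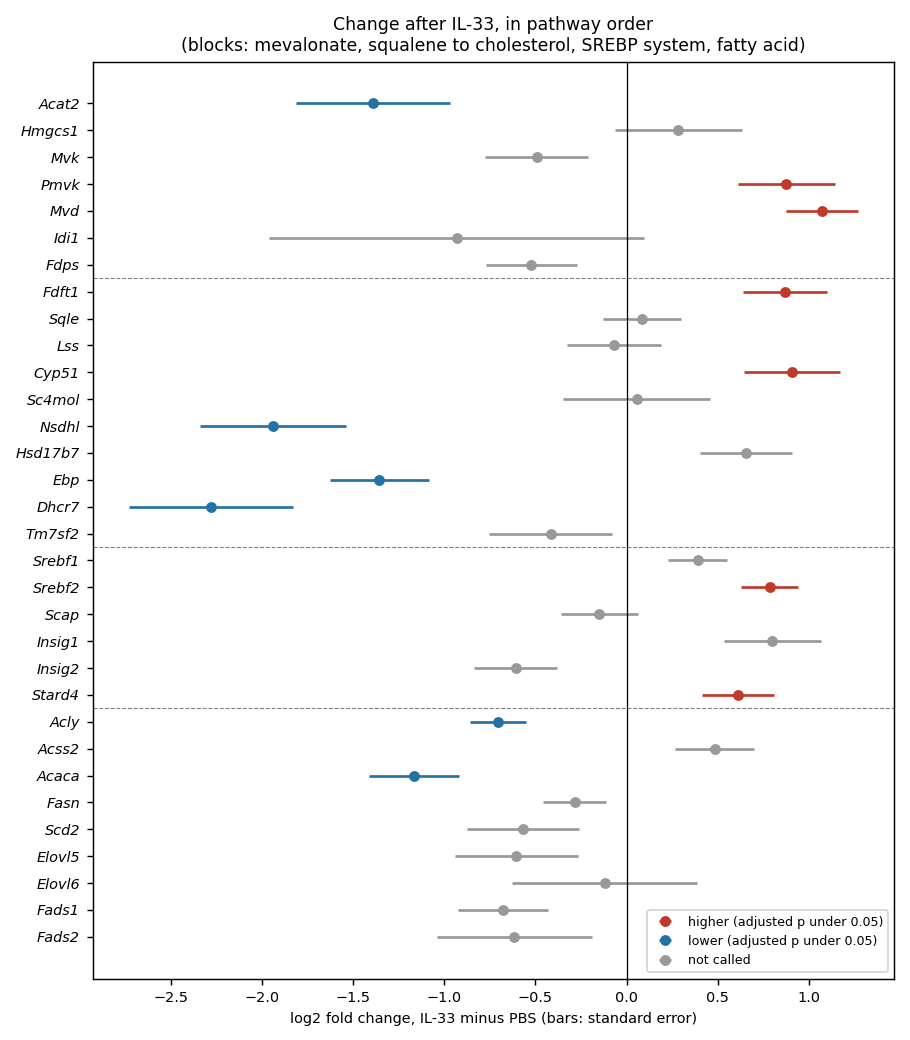
Log2 fold change (IL-33 minus PBS, x axis) of the 32 members tested, in pathway order; points are limma estimates from 3 libraries per group and bars are standard errors. Both directions occur along the mevalonate and sterol steps, from Mvd at 1.07 to Dhcr7 at -2.28.

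Among the 7 mevalonate enzymes 2 were called higher and 1 lower, counts too small to set apart from the 17.4% and 14.4% of all genes. Mvd, which decarboxylates mevalonate pyrophosphate to isopentenyl pyrophosphate, stood at 334, 239.9 and 275 with IL-33 and 146, 132 and 121 with PBS, in the order of replicates 1, 2 and 3 here and below. Every IL-33 library was above every PBS library, and the mean rose from 133 ± 12.6 with PBS to 283 ± 47.3 with IL-33 (SD, n = 3; adjusted p = 0.00673, log2 fold change 1.07, SE 0.20; chr8:122433601-122443422, GRCm38). Pmvk, the kinase of the step before, stood at 188, 334 and 283 with IL-33 and 146, 173 and 113 with PBS. The groups did not overlap, and the mean rose from 144 ± 30.4 with PBS to 268 ± 74.0 with IL-33 (adjusted p = 0.0386, log2 fold change 0.88, SE 0.27; chr3:89454541-89469013). The call of Mvd held with each library left out, though not with equal totals (log2 fold change 0.036, adjusted p = 0.941), whereas Pmvk lost its call when IL-33 replicate 2 or 3 or any 1 PBS library was left out, with log2 fold changes of 0.70, 0.82, 0.90, 1.02 and 0.71 and adjusted p from 0.0731 to 0.157.

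Acat2, the thiolase that joins acetyl-CoA units at the entry to the pathway, stood at 16.2, 6.15 and 8.47 with IL-33 and 23.3, 37.1 and 21.7 with PBS. All 3 IL-33 libraries lay below all PBS libraries, and the mean fell from 27.4 ± 8.48 with PBS to 10.3 ± 5.25 with IL-33 (adjusted p = 0.0388, log2 fold change -1.39, SE 0.42; chr17:12942890-12960747). These values rest on 18, 4 and 5 reads with IL-33 and on 30, 51 and 31 with PBS. Acat2 lost its call when IL-33 replicate 2 or 3 or any 1 PBS library was left out, with log2 fold changes of -1.11, -1.32, -1.48, -1.16 and -1.53 and adjusted p from 0.0722 to 0.161. It passed the filter through the PBS libraries, since only 1 IL-33 library reached 10, and with no filter it was not called (adjusted p = 0.0614). A close copy, Acat3, lies beside it in the mouse genome, so its reads are uncertain.

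The remaining mevalonate enzymes were not called. Hmgcs1, which makes HMG-CoA and holds the letters of the sterol regulatory element in the sequence printed above, stood at 882, 563 and 305 with IL-33 and 494, 431 and 393 with PBS (adjusted p = 0.544, log2 fold change 0.28, SE 0.35). IL-33 replicate 1 was the highest of the 6 libraries and replicate 3 the lowest, so the IL-33 libraries spanned the PBS range. An antisense gene shares 12.1% of its exonic bases. Idi1, which isomerises isopentenyl pyrophosphate, showed the widest spread, at 72.8, 27.7 and 1.69 with IL-33 and 40.4, 26.2 and 34.2 with PBS (adjusted p = 0.5, log2 fold change -0.93, SE 1.03). IL-33 replicate 3 held 1 Idi1 read. Mvk, the first kinase, was at 27.9, 50.8 and 42.4 with IL-33, below its 52.4 to 61.8 with PBS without being called (log2 fold change -0.49, adjusted p = 0.202). Fdps, which makes farnesyl pyrophosphate, was at 169, 214 and 134 with IL-33 and 249, 300.5 and 192 with PBS (log2 fold change -0.52, adjusted p = 0.135), and 26.7% of its exonic bases are shared with the gene model Gm43738.

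**Figure D2:**
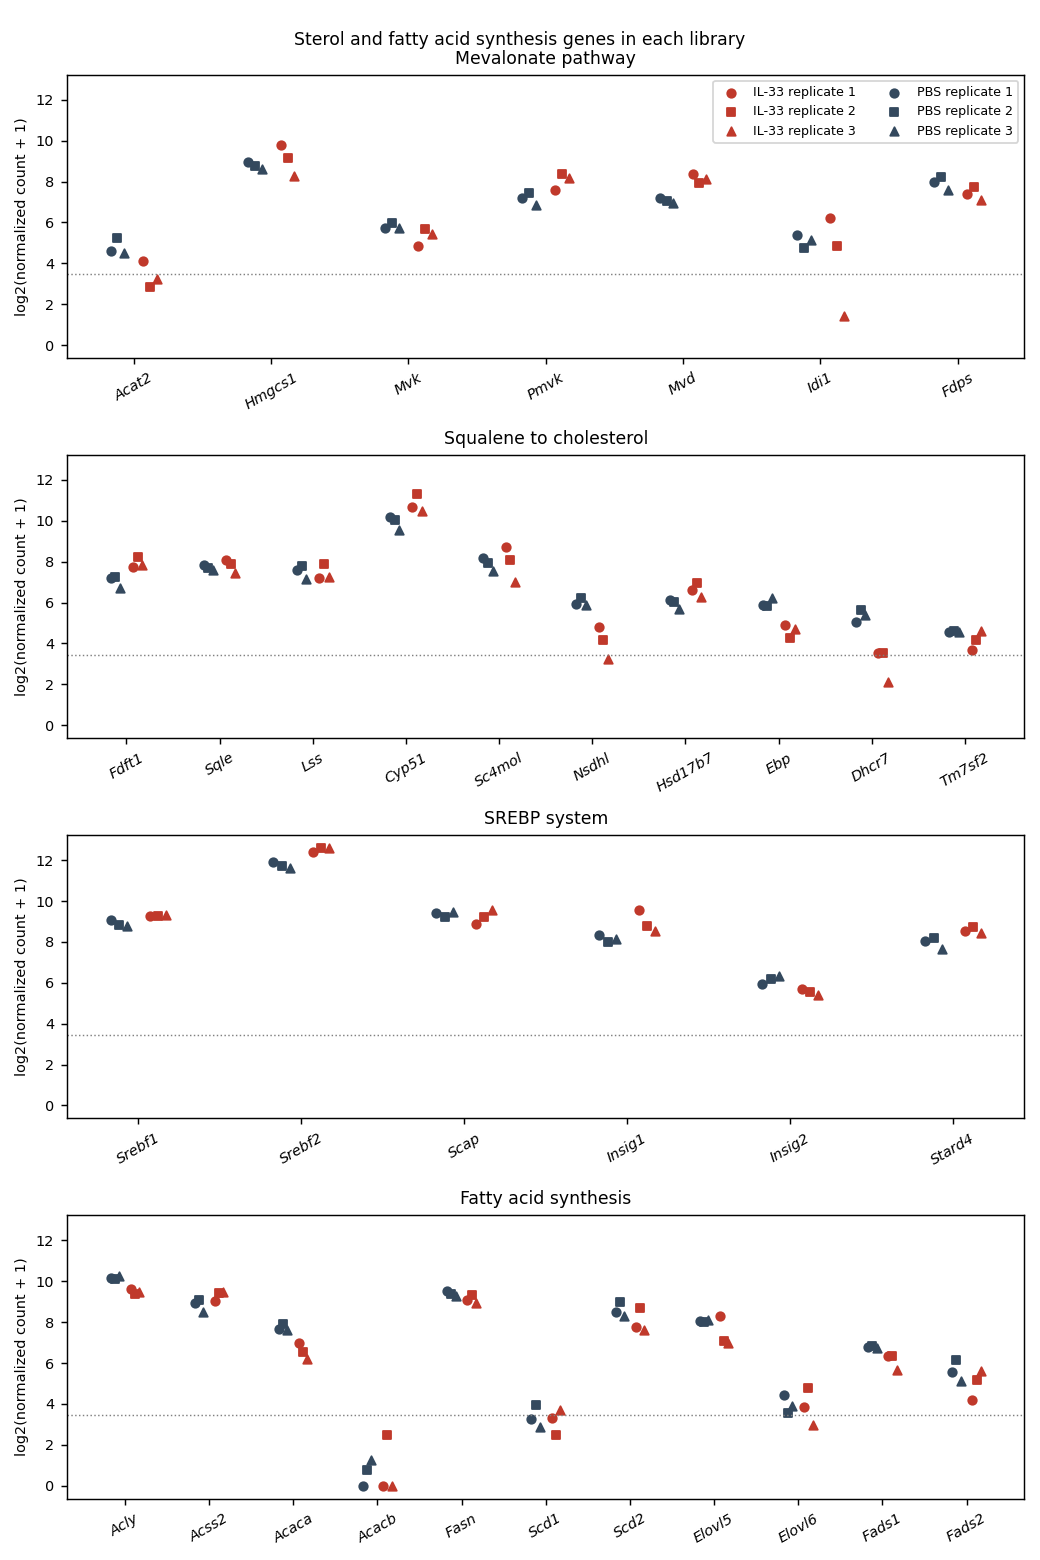
Log2(normalized count + 1) of the 34 members (y axis) in each of the 6 libraries, in pathway order, with 1 marker per library; the dotted line marks a normalized count of 10, the minimum for testing. The IL-33 points of Mvd, Pmvk, Fdft1, Cyp51, Srebf2 and Stard4 lie above all PBS points, those of Acat2, Nsdhl, Ebp, Dhcr7, Acly and Acaca below them, and the IL-33 points of Hmgcs1 and Idi1 straddle the PBS points.

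From squalene to cholesterol, 2 of 10 enzymes were called higher and 3 lower. These counts are too small to set apart from the 17.4% and 14.4% of all genes. Cyp51, the demethylase that begins the trimming of lanosterol, was the most abundant of them at 1663, 2584 and 1420.2 with IL-33 and 1153, 1069 and 746 with PBS. All IL-33 libraries were above all PBS libraries, with the highest value in IL-33 replicate 2, and the mean rose from 989 ± 215 with PBS to 1889 ± 614 with IL-33 (adjusted p = 0.0326, log2 fold change 0.91, SE 0.26; chr5:4081145-4104746). Fdft1, squalene synthase, the first step committed to sterols, stood at 210.4, 295 and 229 with IL-33 and 148, 151 and 103 with PBS. The groups did not overlap, and the mean rose from 134 ± 26.6 with PBS to 245 ± 44.7 with IL-33 (adjusted p = 0.0243, log2 fold change 0.87, SE 0.23; chr14:63145150-63179578). On the opposite strand 18.3% of the exonic bases of Fdft1 are shared with Ctsb, the gene of cathepsin B, which stood at 858 ± 216 with IL-33 and 522 ± 117 with PBS. Whether the counting used strand is not given in the sources used here, so reads there may not be told apart. Cyp51 lost its call when IL-33 replicate 2 or any 1 PBS library was left out, with log2 fold changes of 0.66, 1.03, 0.98 and 0.72 and adjusted p from 0.0608 to 0.138. Fdft1 lost its call when IL-33 replicate 2 or any 1 PBS library was left out, with log2 fold changes of 0.73, 0.95, 0.96 and 0.69 and adjusted p from 0.0577 to 0.115.

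The 3 enzymes called lower act after Cyp51. Nsdhl, a dehydrogenase that helps strip methyl groups from the sterol ring, stood at 27.0, 16.9 and 8.47 with IL-33 and 60.6, 73.5 and 57.3 with PBS. The highest IL-33 library was below the lowest PBS library, and the mean fell from 63.8 ± 8.55 with PBS to 17.5 ± 9.26 with IL-33 (adjusted p = 0.0103, log2 fold change -1.94, SE 0.40; chrX:72918557-72958514). Ebp, the isomerase that moves a ring double bond, stood at 28.8, 18.5 and 25.4 with IL-33 and 58.2, 56.8 and 74.1 with PBS. Its groups were again separate, and the mean fell from 63.0 ± 9.60 with PBS to 24.2 ± 5.26 with IL-33 (adjusted p = 0.00931, log2 fold change -1.36, SE 0.27; chrX:8185329-8193512). Dhcr7, the reductase of the final step from 7-dehydrocholesterol, stood at 10.8, 10.8 and 3.39 with IL-33 and 32.6, 48.7 and 40.5 with PBS. It had the largest fall of the members tested, from 40.6 ± 8.07 with PBS to 8.31 ± 4.27 with IL-33 (adjusted p = 0.00873, log2 fold change -2.28, SE 0.45; chr7:143823145-143848410).

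These 3 genes have few reads. Dhcr7 had 12, 7 and 2 reads with IL-33 and 42, 67 and 58 with PBS. Nsdhl had 30, 11 and 5 against 78, 101 and 82 reads, and Ebp had 32, 12 and 15 against 75, 78 and 106. Nsdhl and Dhcr7 passed the filter through the PBS libraries, since IL-33 replicate 3 lay under 10 for both, and with no filter they were called (adjusted p = 0.0146 and 0.0125). Nsdhl lost its call when PBS replicate 2 was left out, with a log2 fold change of -1.83 and adjusted p = 0.0558. Ebp lost its call when PBS replicate 3 was left out, with a log2 fold change of -1.24 and adjusted p = 0.0638. Dhcr7 lost its call when PBS replicate 2 or 3 was left out, with log2 fold changes of -2.14 and -2.27 and adjusted p from 0.0501 to 0.0514.

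The other 5 enzymes of this stretch were not called. Hsd17b7, the keto-reductase that works beside Nsdhl, was at 96.2, 121 and 76.3 with IL-33, above its 50.3 to 69.9 with PBS (adjusted p = 0.0792, log2 fold change 0.65, SE 0.25; called without IL-33 replicate 3, at 0.82). Within the group of enzymes that remove the ring's methyl groups, Cyp51 was called higher and Nsdhl lower, and Hsd17b7 had separate groups without a call. Sc4mol, the methylsterol oxidase of the same group, was at 425, 269 and 129 with IL-33 and 294, 242 and 185 with PBS (log2 fold change 0.055, adjusted p = 0.928), with IL-33 libraries on both sides of the PBS range. Sqle, the squalene epoxidase, was at 171 to 266 with IL-33 and 191 to 228 with PBS (log2 fold change 0.086, adjusted p = 0.775). Lss, which closes the ring, was at 145 to 235 and 143 to 218 (log2 fold change -0.07, adjusted p = 0.85), and Tm7sf2, a sterol reductase, at 11.7 to 23.7 and 22.4 to 23.3 (log2 fold change -0.42, adjusted p = 0.36).

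Of the 6 genes of the SREBP system 2 were called higher and 0 lower, counts too small to set apart from the 17.4% and 14.4% of all genes, and their median log2 fold change was 0.50. Srebf2, the gene of the main sterol regulator, was the most abundant member, at 5435, 6216 and 6219.9 with IL-33 and 3841, 3403 and 3146 with PBS. The replicates lay close together and the groups were far apart, with the mean going from 3463 ± 352 with PBS to 5957 ± 452 with IL-33 (adjusted p = 0.0085, log2 fold change 0.78, SE 0.15; chr15:82147181-82205379). Stard4, a cytosolic carrier of cholesterol, stood at 369, 421 and 344 with IL-33 and 260.2, 287 and 201 with PBS. Its groups did not overlap and the mean rose from 249 ± 44.1 with PBS to 378 ± 39.5 with IL-33 (adjusted p = 0.0464, log2 fold change 0.61, SE 0.20). Srebf2 lost its call when PBS replicate 2 or 3 was left out, with log2 fold changes of 0.77 and 0.72 and adjusted p from 0.0524 to 0.0606, and also with quantile normalization (log2 fold change 0.15, adjusted p = 0.391). Among the fits with 1 library left out, Stard4 was called without IL-33 replicate 1. It lost its call when IL-33 replicate 2 or 3 or any 1 PBS library was left out. The limma log2 fold changes were then 0.53, 0.68, 0.65, 0.72 and 0.46, with adjusted p from 0.0507 to 0.197. Stard4 kept its call in only 6 of 20 alternatives, and lost it also with no filter and with TMM scaling.

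Insig1, itself a textbook SREBP target and the protein that retains SCAP, missed the threshold narrowly. It stood at 751, 439.8 and 375 with IL-33 and 323, 258 and 279.6 with PBS, with every IL-33 library above every PBS library (adjusted p = 0.051, log2 fold change 0.80, SE 0.27; chr5:28071363-28078662). The edgeR quasi-likelihood test on the recovered reads gave adjusted p = 0.0433 and DESeq2 gave adjusted p = 0.016. Limma called it without IL-33 replicate 1 (log2 fold change 0.50) and without IL-33 replicate 3 (1.01). Its sister Insig2 was at 51.2, 46.1 and 40.7 with IL-33 and 61.4, 71.3 and 79.7 with PBS, with all IL-33 libraries lower (adjusted p = 0.0718, log2 fold change -0.61, SE 0.23). The ratio of Insig1 to Insig2 was 14.6, 9.53 and 9.21 with IL-33 and 5.27, 3.62 and 3.51 with PBS. Srebf1, the fatty acid regulator, was at 615, 609 and 639 with IL-33 and 541, 448 and 438 with PBS, separate but not called (adjusted p = 0.0968, log2 fold change 0.39, SE 0.16). The ratio of Srebf2 to Srebf1 was 8.84, 10.2 and 9.73 with IL-33 and 7.11, 7.59 and 7.18 with PBS. Scap, the escort, was at 470.2 to 761 and 589 to 708 (log2 fold change -0.15, adjusted p = 0.598). The gene pairs for these and the other ratios were picked after the values were seen, so the ratios are descriptions.

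Of the 11 genes of fatty acid synthesis 9 were tested, of which 0 were called higher and 2 lower (17.4% and 14.4% of all genes), and their median log2 fold change was -0.60. Acly, ATP citrate lyase, which supplies cytosolic acetyl-CoA to both pathways, stood at 774, 663 and 703 with IL-33 and 1159, 1089 and 1234 with PBS. The replicates were tight in both groups, and the mean fell from 1161 ± 72.5 with PBS to 713 ± 56.3 with IL-33 (adjusted p = 0.0123, log2 fold change -0.70, SE 0.15; chr11:100476353-100528000). Acaca, acetyl-CoA carboxylase, which makes malonyl-CoA and controls the flow into fatty acids, stood at 126, 92.3 and 71.2 with IL-33 and 200.4, 243 and 194 with PBS. The groups were separate, and the mean fell from 213 ± 26.5 with PBS to 96.4 ± 27.6 with IL-33 (adjusted p = 0.0112, log2 fold change -1.16, SE 0.25; chr11:84129672-84401651). Acly lost its call when IL-33 replicate 2 or any 1 PBS library was left out, with log2 fold changes of -0.65, -0.70, -0.75 and -0.66 and adjusted p from 0.0503 to 0.0799. Acaca lost its call when PBS replicate 2 or 3 was left out, with log2 fold changes of -1.06 and -1.22 and adjusted p from 0.0505 to 0.0623.

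The 7 others tested were not called. Fasn, the synthase that builds palmitate, was at 539, 638 and 489.8 with IL-33 and 735, 674 and 613 with PBS (adjusted p = 0.23, log2 fold change -0.28, SE 0.17). Acss2, which makes acetyl-CoA from acetate, was at 523, 687 and 710.1 with IL-33 and 491, 536 and 355 with PBS (adjusted p = 0.117, log2 fold change 0.48, SE 0.22). Acss2 is the fatty acid gene with the highest estimate, and its groups overlapped. Fads1, a desaturase of polyunsaturated fatty acids, was at 80.0, 80.0 and 49.1 with IL-33 and 110.3, 114 and 104 with PBS, all lower but not called (log2 fold change -0.68, adjusted p = 0.0665). Its neighbour Fads2 was at 17.1 to 47.5 against 33.5 to 69.8 (log2 fold change -0.62, adjusted p = 0.285), and the elongase Elovl5 at 124 to 312 against 255 to 275 (log2 fold change -0.60, adjusted p = 0.192). The desaturase Scd2 was at 198 to 411 against 318 to 509 (log2 fold change -0.57, adjusted p = 0.184), and Elovl6, which lengthens palmitate, at 6.78 to 26.1 against 10.9 to 21.0 (log2 fold change -0.12, adjusted p = 0.87). The members left out for low values were Scd1, the desaturase that dominates in liver, at 4.61 to 11.9 and 6.29 to 14.6, and Acacb, the carboxylase of the mitochondrial surface, at 0 to 4.61 and 0 to 1.40.

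Levels of different genes were compared per kilobase of exon, as normalized counts in the PBS libraries. Srebf2 led with 482 ± 48.9 (SD, n = 3), followed by Cyp51 at 224 ± 48.7 and Acly at 219.9 ± 13.7, which did not differ beyond their spread. Hmgcs1 at 95.7 ± 11.0, Insig1 at 92.8 ± 10.7, Scap at 88.9 ± 8.54, Srebf1 at 84.4 ± 10.0 and Pmvk at 84.0 ± 17.7 came next and lay within their spreads of each other. Among the enzymes called lower, Ebp stood at 27.3 ± 4.16, Nsdhl at 22.4 ± 3.00, Acaca at 12.4 ± 1.55, Acat2 at 10.8 ± 3.33 and Dhcr7 at 6.99 ± 1.39 per kilobase. Elovl6 at 2.38 ± 0.801 and Scd1 at 2.00 ± 0.873 were near the bottom of the order. The members called higher had PBS means of 133 to 3463 normalized counts, and 0 of those 6 were under 100. Those called lower had PBS means of 27.4 to 1161, and 4 of those 6 were under 100. Over all genes, 30.6% of those called higher and 40.1% of those called lower were under 100.

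The make-up of the sterol pathway within a library does not depend on how libraries were scaled to each other. Of the summed normalized counts of the 17 mevalonate and sterol enzymes, Cyp51 held 36.4, 49.3 and 43.2% with IL-33 and 33.8, 32.2 and 29.4% with PBS, so it took a larger share in every IL-33 library. Fdft1 held 4.60, 5.63 and 6.96% against 4.35, 4.54 and 4.07%, again higher in all. Hsd17b7 held 2.10, 2.32 and 2.32% against 2.05, 1.93 and 1.98%, a small difference without overlap. On the other side, Nsdhl held 0.590, 0.323 and 0.258% against 1.77, 2.22 and 2.26%, Ebp 0.629, 0.352 and 0.773% against 1.71, 1.71 and 2.92% and Dhcr7 0.236, 0.205 and 0.103% against 0.956, 1.47 and 1.60%. Fdps, at 3.70, 4.08 and 4.07% against 7.30, 9.06 and 7.57%, also had a lower share in every IL-33 library, as did Acat2, Mvk, Sqle and Lss. Shares of 1 pool are linked, so a larger share of Cyp51 by itself makes the other shares smaller. The normalized counts of Fdps, Sqle and Lss overlapped between the groups. No background was computed for shares, and on normalized counts the groups did not overlap for 50.2% of all genes. The shares of Hmgcs1, Pmvk, Mvd, Idi1, Sc4mol and Tm7sf2 overlapped between the groups. The sum of the 17 enzymes was 4574, 5243 and 3288 with IL-33 and 3413, 3317 and 2540.5 with PBS, which overlap.

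**Figure D3:**
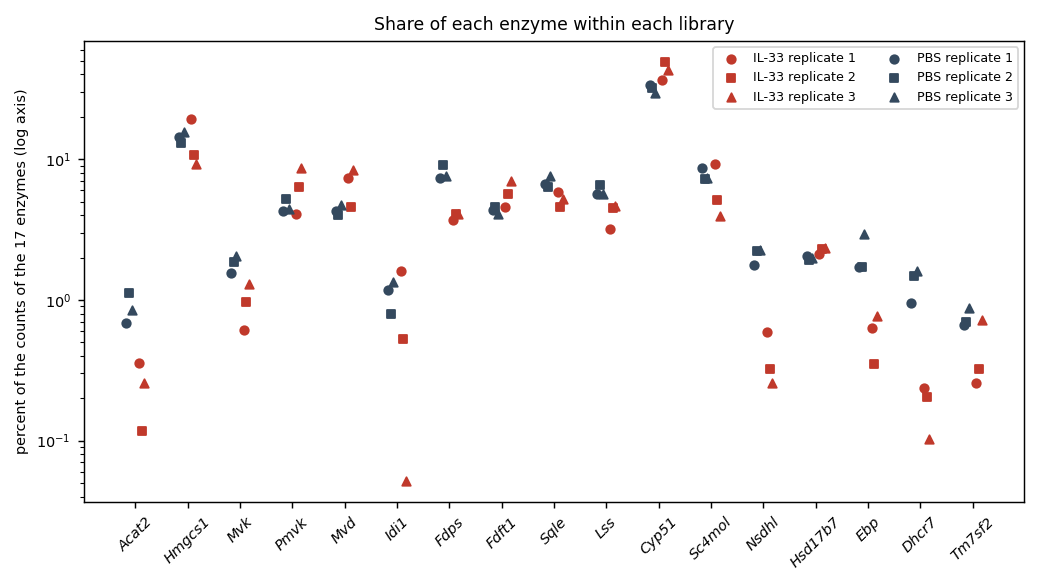
Share of each of the 17 mevalonate and sterol enzymes in their summed normalized count within each library (percent, log axis), with 1 marker per library. Cyp51 sits at 36.4% to 49.3% in the IL-33 libraries and 29.4% to 33.8% in the PBS libraries, while the IL-33 markers of Nsdhl, Ebp, Dhcr7, Acat2 and Fdps lie below all PBS markers.

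The same shares among the 11 fatty acid genes were lower with IL-33 for Acly, at 29.6, 23.9 and 29.2% against 34.2, 31.0 and 39.2%, and for Acaca, at 4.82, 3.32 and 2.95% against 5.90, 6.91 and 6.17%. Acss2 held 20.0, 24.8 and 29.4% against 14.5, 15.2 and 11.3%, a higher share in every IL-33 library. Fads1 had a lower share without overlap, and the other 7 genes overlapped. These shares are linked in the same way, and the normalized counts of Acss2 overlapped between the groups. The sum of the 11 genes was 2613, 2777 and 2412 with IL-33 and 3394, 3517 and 3149 with PBS, lower in every IL-33 library. The ratio of Cyp51 to Nsdhl, steps of the same demethylation series, was 61.7, 153 and 168 with IL-33 and 19.0, 14.5 and 13.0 with PBS. The ratio of Mvd to Ebp was 11.6, 13.0 and 10.8 with IL-33 and 2.51, 2.33 and 1.63 with PBS.

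The 3 IL-33 libraries stood apart from each other at Hmgcs1, Idi1, Sc4mol and Insig1, genes chosen after their values were seen. Set against the PBS mean on the log2 scale, Hmgcs1 was at 1.01, 0.36 and -0.52 in IL-33 replicates 1, 2 and 3, Idi1 at 1.11, -0.25 and -3.66, Sc4mol at 0.85, 0.19 and -0.87 and Insig1 at 1.39, 0.62 and 0.39. Replicate 1, whose Rn45s share lay within the PBS range, was the highest of the 3 for each of these 4 genes. The median over the mevalonate enzymes was 0.40, -0.13 and -0.52 in replicates 1, 2 and 3. Over the SREBP genes it was 0.48, 0.49 and 0.41, close together, and over the fatty acid genes -0.45, -0.42 and -0.96, lower than PBS in each.

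Without IL-33 replicate 1, 9 members were called higher and 10 lower (28% and 28.4% of all genes), and these include Srebf1, Insig1 and Acss2 among the higher and Idi1, Insig2, Elovl5 and Fads1 among the lower. The log2 fold change of Idi1 was then -1.96. A fit of replicate 1 alone against PBS takes its spread from the PBS libraries only, while the IL-33 libraries spread more at these genes (for Idi1 the SD of the normalized count was 36.0 with IL-33 and 7.12 with PBS), so its calls are not listed.

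**Figure D4:**
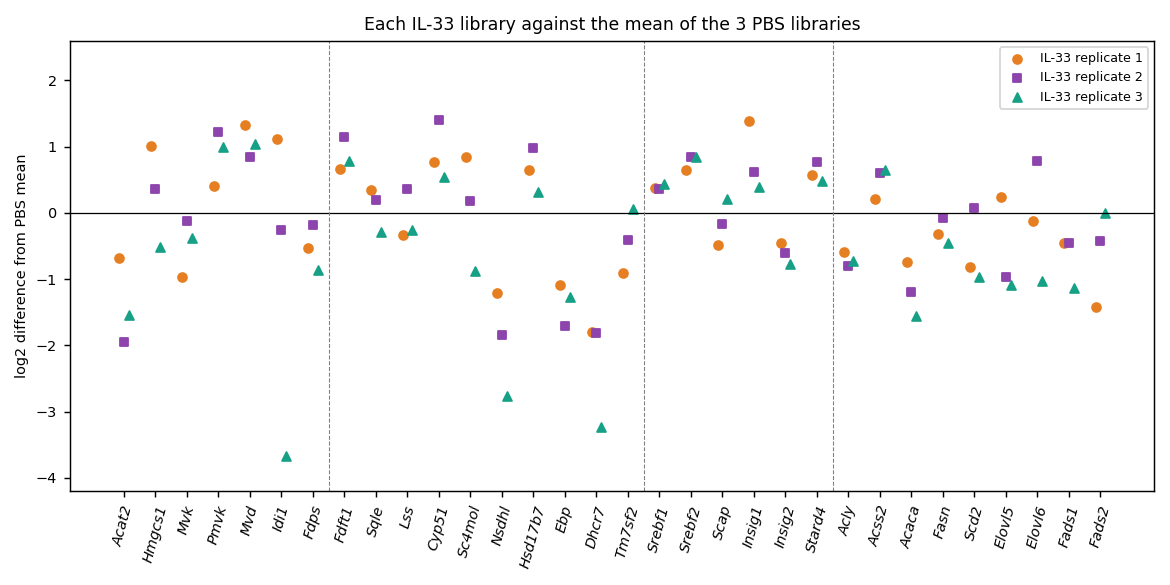
Log2 difference of each IL-33 library from the mean of the 3 PBS libraries (y axis) for the 32 members tested, in pathway order, with dashed lines between the 4 role groups. The 3 libraries lie close together at Srebf2 and Acly and far apart at Idi1, which runs from 1.11 in replicate 1 to -3.66 in replicate 3.

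The directions depend on how libraries are scaled. With libraries scaled to equal totals, Rn45s included, the median over all genes moved from -0.03 to -1.06 and that of the members from -0.22 to -1.26, with 0 members called higher and 17 lower (2.5% and 50.1% of all genes). With Rn45s left out of the totals, the medians were -0.45 for all genes and -0.64 for members, with 1 called higher, Mvd, and 14 lower (9.02% and 33.9%). The log2 fold change of Srebf2 went from 0.78 to 0.36 with equal totals without Rn45s and to -0.26 with equal totals. That of Cyp51 went from 0.91 to 0.49 without Rn45s and to -0.13 with it. Quantile normalization called 4 members higher and 6 lower (15.5% and 16.5% of all genes), and ended the calls of Srebf2, Cyp51 (log2 fold change 0.53), Stard4 (0.50) and Acat2 (-1.03), with Hsd17b7 and Fasn gained. So the rise or fall of a single gene is relative to the other genes of its library. Nsdhl, Ebp, Dhcr7, Acly and Acaca were called lower under each of these scalings. Equal totals, with or without Rn45s, also lowered the median over all genes, so calls of lower under them are no separate support. The Rn45s share of each library, 24.3%, 59.6% and 54.8% with IL-33 and 13.7% to 24.8% with PBS, goes partly with the treatment. With it as a covariate, a fit with few residual degrees of freedom, treatment and share cannot be fully told apart. This fit called 2 members higher, Mvd and Insig1, and 1 lower, Fads2 (8.67% and 6.09% of all genes). Nsdhl, Ebp, Dhcr7, Acly and Acaca were not called in it. The edgeR test on recovered reads called 6 members higher and 6 lower (18.1% and 14%), with Insig1 in place of Stard4, and DESeq2 called 7 and 6 (21.2% and 15.4%). Without the mean-variance trend 3 were called higher and 6 lower (15.1% and 13.4%). In 0 of the 20 alternatives was a called member called in the opposite direction.

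**Figure D5:**
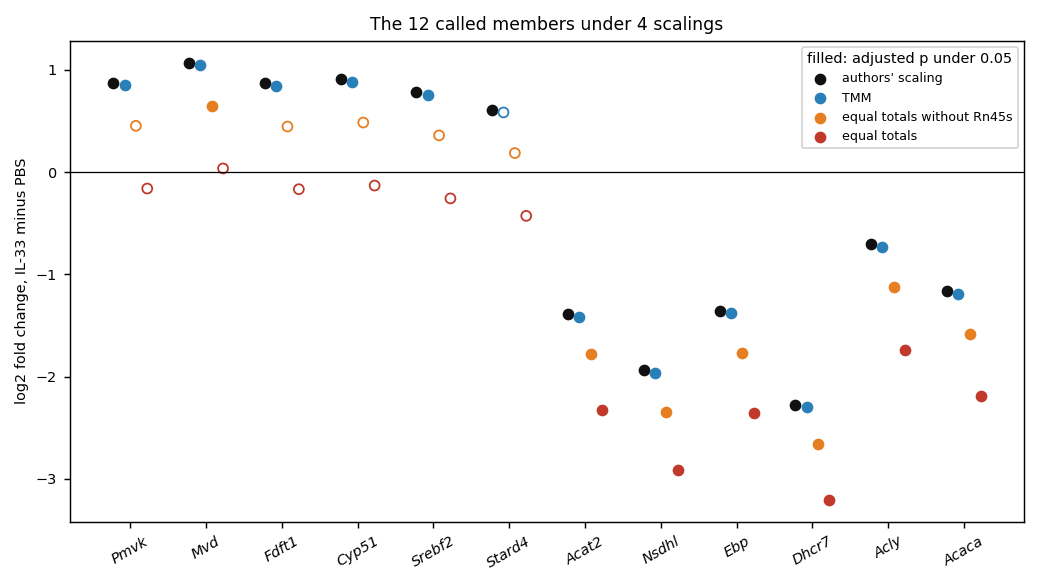
Log2 fold changes (IL-33 minus PBS, y axis) of the 12 called members under the authors' size factors and 3 other scalings; filled points have an adjusted p under 0.05. Srebf2 goes from 0.78 under the authors' size factors to -0.26 with equal totals, and Cyp51 from 0.91 to -0.13.

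Among other genes of sterol handling, Lbr, the lamin B receptor, which also carries a sterol reductase activity of the same step as Tm7sf2, fell (adjusted p = 0.00595, log2 fold change -0.85, SE 0.15). It stood at 708, 659.8 and 598 with IL-33 against 1142, 1221 and 1177 with PBS. Leaving aside the fit of IL-33 replicate 1 alone, Lbr was called lower in every alternative. The fits with equal totals are no separate support for that call.

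Of 13 genes that control SREBP processing or the turnover of sterol enzymes, 4 were called higher and 2 lower, with a median of 0.23. The shares over all genes tested were 17.4% and 14.4%, and counts this small cannot be set apart from them. Pgrmc1 (log2 fold change 1.45, adjusted p = 0.00207), Rnf145 (log2 fold change 1.19, adjusted p = 0.00524) and Erlin2 (log2 fold change 1.05, adjusted p = 0.0255), proteins of the endoplasmic reticulum, rose most. Rnf145 is a ubiquitin ligase, and Erlin2 takes part in protein degradation at the endoplasmic reticulum. Mbtps1, the protease that first cuts SREBP, fell (log2 fold change -0.58, adjusted p = 0.0291), as did Sec23a, a coat protein of the vesicles that carry SCAP (log2 fold change -0.76, adjusted p = 0.0411). Erlin2, Mbtps1 and Sec23a were not called without any 1 of IL-33 replicates 2 and 3 and PBS replicates 1, 2 and 3. Their log2 fold changes in those fits were 0.89, 0.89, 1.18, 0.98 and 0.99 for Erlin2. They were -0.58, -0.50, -0.60, -0.57 and -0.56 for Mbtps1, and -0.63, -0.70, -0.85, -0.77 and -0.66 for Sec23a. Of 20 alternatives, Erlin2 kept its call in 11, Mbtps1 in 13 and Sec23a in 10.

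Of 12 genes that use isoprenoids for dolichol, ubiquinone or protein prenylation, 2 were called higher and 0 lower, with a median of -0.16. Over all genes tested the shares were 17.4% and 14.4%. Rce1, the protease that trims prenylated proteins, rose (log2 fold change 1.29, adjusted p = 0.00653), and so did Nus1, a subunit of the dolichol synthase (log2 fold change 0.54, adjusted p = 0.0425). Nus1 lost its call when any PBS library or IL-33 replicate 2 was left out, at log2 fold changes of 0.55, 0.54, 0.51 and 0.55, and its sign changed with equal totals (-0.50). Nus1 kept its call in only 8 of 20 alternatives, and lost it also with no filter, TMM scaling and quantile normalization.

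Of 24 further fatty acid genes 19 were tested, with 3 called higher and 2 lower (17.4% and 14.4% of all genes). Their median was -0.10. Me1, the malic enzyme that supplies NADPH, rose (log2 fold change 2.50, adjusted p = 0.0244), at 118, 55.4 and 33.9 with IL-33 against 28.0, 6.55 and 4.89. The call of Me1 was lost when PBS replicate 2 (log2 2.24), PBS replicate 3 (2.06) or IL-33 replicate 2 (2.56) was removed, and Me1 passed the filter through the IL-33 libraries. Hacd3 (log2 fold change 1.73, adjusted p = 0.00296), a dehydratase of fatty acid elongation, and Slc25a1 (log2 fold change 0.93, adjusted p = 0.00791), the mitochondrial citrate exporter that feeds Acly, rose too. Slc25a1 was not called without PBS replicate 3 (log2 0.85), and its sign changed with equal totals (-0.11). Hacd4, a second dehydratase (log2 fold change -2.31, adjusted p = 0.0135), and Tecr, the reductase that ends each elongation cycle (log2 fold change -1.06, adjusted p = 0.0128), fell. Hacd4 was not called without PBS replicate 3 (log2 -2.05), nor Tecr without PBS replicate 2 (-1.05), without PBS replicate 3 (-0.96) or with IL-33 replicate 2 removed (-0.90).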

How the data were processed

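RNA-seq of 6 libraries, 3 per group by their titles, was available as 1 table of signal values that the authors deposited, in which each library's gene counts are divided by 1 size factor. HISAT2, HTSeq and DESeq2 with build mm10 are named in the submitters' processing notes, while for versions, annotation and strand setting the sources used here give nothing. The libraries had been depleted of ribosomal RNA and made with a directional kit, per the labels' protocols. Every value was a whole multiple of its library's smallest value (100.0% whole within 0.1 of a read), so reads were recovered for depth and for count tests.

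The main test was limma's moderated model (limma 3.58.1, R 4.3.3; lmFit, eBayes with trend, two-sided) on log2(value + 1) for genes at 10 or more in at least 3 libraries, which left 10544 of 23420, with Benjamini-Hochberg adjustment over all of them and a threshold of 0.05. A fold change on that scale understates the change of low genes. Intervals, SDs and SEs reflect 3 libraries per group, and recovered reads need not stand for independent molecules. Alternatives were other pseudocounts (0.5 and 5), no filter and a filter at 50, TMM, equal totals with and without Rn45s, quantile normalization, no trend, DESeq2 1.42.0 and edgeR's quasi-likelihood test (4.0.16) on recovered reads, a replicate block, the Rn45s share as a covariate, IL-33 replicate 1 alone, and each library left out. The fitting was tested on simulated data. Coordinates are 1-based gene spans from GENCODE vM21 (GRCm38), and exon lengths are unions over transcripts. Promoter letters are from RefSeq (GRCm38.p6), and each motif spelled out in the text was counted on both strands.

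The members, the other gene lists, the marker lists and the alternatives were chosen with earlier results of these data known, so no count on them is independent evidence. All members could be named; of the other lists, up to 3 called genes per direction with the largest change, plus Rn45s; some genes of these lists are not reported here. Ctsb is named for its overlap with Fdft1. Hacd3 and Hacd4 are listed under the older symbols Ptplad1 and Ptplad2.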

Additional observations from a re-analysis of the deposited data

How the results depend on the processing

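Over the 32 members tested and 20 alternatives there were 634 values. Of these, 486 kept direction and side of the threshold, 67 lost a call, 43 gained one and 38 changed sign. Calls held in 6 of 20 alternatives for Stard4, 9 of 19 for Acat2, 10 of 20 for Pmvk and 11 of 20 for Cyp51. They held in 13 of 20 for Fdft1, 14 of 20 for Srebf2, 15 of 20 for Acly, 17 of 20 for Acaca and 16 of 19 for Dhcr7. The members called higher and lower numbered 6 and 6 and became 0 and 17 with equal totals, 1 and 14 with equal totals without Rn45s, and 2 and 1 with the Rn45s share as a covariate. Without a mean-variance trend 3 were called higher. The members' median log2 fold change of -0.22 became -1.26 with equal totals and -0.64 with equal totals without Rn45s. Leaving out 1 library gave 1 to 9 members higher, 1 to 10 lower and medians of -0.40 to -0.09. The fewest came without PBS replicate 2 (Mvd higher, Ebp lower) and without PBS replicate 3 (Mvd higher, Nsdhl lower). CCAAT matches fell from 22 to 12 members on the gene strand alone. The cause of these changes was not tested, save that fewer samples enter each leave-one-out fit and that equal totals divide by totals that include Rn45s.

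Where a log2 fold change took the other sign, its value was as follows. With equal totals it was -0.75 for Hmgcs1, -0.16 for Pmvk, -0.17 for Fdft1, -0.95 for Sqle, -0.13 for Cyp51, -0.98 for Sc4mol, -0.37 for Hsd17b7, -0.65 for Srebf1, -0.26 for Srebf2, -0.24 for Insig1, -0.43 for Stard4 and -0.56 for Acss2. With equal totals without Rn45s it was -0.14 for Hmgcs1, -0.34 for Sqle, -0.37 for Sc4mol and -0.034 for Srebf1. With quantile normalization it was -0.0051 for Sc4mol and 0.28 for Elovl6. With edgeR it was 0.12 for Idi1 and 0.0031 for Elovl6. With DESeq2 it was 0.049 for Idi1 and 0.024 for Elovl6. With the Rn45s covariate it was 0.95 for Idi1 and 0.29 for Elovl5. With IL-33 replicate 1 alone it was 1.11 for Idi1 and 0.24 for Elovl5. With 1 library left out, the values that crossed 0 ranged over -0.079 to 0.69 for Hmgcs1, -0.044 to 0.27 for Sqle, -0.29 to 0.061 for Lss, -0.34 to 0.52 for Sc4mol, -0.33 to 0.021 for Scap, -1.96 to 0.43 for Idi1 and -0.57 to 0.33 for Elovl6. Of these genes Pmvk, Fdft1, Cyp51, Srebf2 and Stard4 had been called, and they changed sign with equal totals only. The cause was not tested.

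With the replicate number as a block, 6 members were called higher and 5 lower (15.4% and 12.3% of all genes), with Insig1 gained and Stard4 and Acat2 lost. The correlation of deviations between libraries of the same number was 0.0459, 0.242 and -0.164, and between libraries of different numbers -0.281 to 0.237. With 3 libraries per group these values cannot settle whether the numbers pair the libraries, and the labels do not say. Depth limits Acat2, Dhcr7, Idi1 and the members under 10 counts, whose changes rest on few reads.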

Other observations

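Genes that use fatty acids were counted on lists of 17 glycerolipid and 20 oxidation genes. Of 15 glycerolipid genes tested, 6 were called higher and 0 lower, with a median log2 fold change of 0.28, beside 17.4% and 14.4% of all genes. Dgat2, which makes triglyceride from diglyceride, had a normalized count that rose from 43.2 ± 12.8 with PBS to 286 ± 16.6 with IL-33 (SD, n = 3; adjusted p = 0.000411, log2 fold change 2.75, SE 0.26). It stood at 279.6, 274 and 305 in IL-33 replicates 1, 2 and 3 and at 52.8, 48.0 and 28.7 in the PBS libraries. Agpat5, an acyltransferase of phosphatidic acid synthesis, stood at 676, 949 and 1110.1 against 162, 142 and 185 (log2 fold change 2.46, adjusted p = 0.000348), with 18.9% of its exonic bases shared with an antisense gene. Chka, the choline kinase that begins phosphatidylcholine synthesis, stood at 1145, 1190.4 and 1119 against 362, 225 and 199.9 (log2 fold change 2.18, adjusted p = 0.000751). Leaving aside the fit of IL-33 replicate 1 alone, these 3 genes were called higher in every alternative, equal totals included. The alternatives refit the same libraries.

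Of 19 fatty acid oxidation genes tested, 0 were called higher and 6 lower, with a median of -0.54, beside 17.4% and 14.4% of all genes. The edgeR and DESeq2 tests each called 6 lower (14% and 15.4% of all genes) and 1 higher (18.1% and 21.2%). The 1 higher was Hadhb, named after its values were seen. Limma called 1 lower without PBS replicate 2 and 3 lower without PBS replicate 3 (3.47% and 3.08% of all genes). It called 16 lower with equal totals and 13 with equal totals without Rn45s, beside 50.1% and 33.9% of all genes. With the Rn45s share as a covariate it called 1 lower (6.09%). Acadm, the medium-chain dehydrogenase, stood at 106, 66.1 and 37.3 with IL-33 against 191, 244 and 233 with PBS (log2 fold change -1.77, adjusted p = 0.00901). Hadh, a dehydrogenase of short chains and 1 of the 6, stood at 6.29, 9.23 and 3.39 against 21.7, 26.9 and 22.4. It passed the filter of 10 only through the PBS libraries, so its place in that count is no support, and the fit with no filter gave log2 -1.83 and adjusted p = 0.0217. Cpt1a, which admits long-chain fatty acids to mitochondria, stood at 331, 258 and 154 against 492, 656 and 642 (log2 fold change -1.32, adjusted p = 0.012), and was not called without PBS replicate 2 (log2 -1.25) or PBS replicate 3 (-1.26). Of 8 genes of oxysterol sensing and cholesterol export 4 were tested, with 2 called higher and 0 lower (17.4% and 14.4% of all genes). Abca1, the exporter of cholesterol, stood at 40.5, 27.7 and 54.2 against 5.44, 5.82 and 6.29. It passed the filter only through the IL-33 libraries, so its place in that count is no support, and the fit with no filter gave log2 2.56 and adjusted p = 0.00344. Mylip, a ubiquitin ligase, stood at 597, 572 and 747 against 211, 179.7 and 176 (log2 fold change 1.75, adjusted p = 0.000695). Differences between these lists were not tested.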
